A study of Mus musculus with 10 samples.

Results

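The genes described here mark the lining of mucosal airways and of the middle ear: the secreted proteins Bpifb1, Bpifa1, Scgb1a1, Scgb3a1, Muc5b, Reg3g and Tff2, the membrane mucin Muc4, the cilium regulator Foxj1 and the basal cell keratin Krt5. The genes were chosen by symbol for their known roles, with earlier results of these data known. Each was read from the array row that named it alone, taking the brightest over all 10 arrays where a gene had several. Of the 10 genes 9 had such a row, out of 29766 genes in all. The row that held Foxj1 also named the neighbouring gene Rnf157, so Foxj1 was not analysed here. RNA was taken from powdered inner ear of CBA/CaJ mice, labelled as cochlea, at 6 months of age, when their hearing was normal. All mice lived alone in a cage, which held a running wheel for 5 samples (runners) and no wheel for 5 (controls). The labels name no altered gene and no drug in either group, and give neither the sex nor the distance run. They also leave unsaid whether each array stands for its own animal, so every p-value below describes the spread between these samples, part of which may be technical. The series concerns long-term running and the loss of hearing with age, and these arrays bear on what a wheel in the cage changed in the young ear.

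The middle ear is lined by an epithelium that continues the airway lining through the Eustachian tube. It holds secretory cells that release mucins and antimicrobial proteins, ciliated cells that clear the mucus towards the throat, and basal cells that renew both. None of these cells belongs to the cochlea proper, and the labels do not name the middle ear as a tissue, so the group of genes is called here by what its members are known for.

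Values are log2 expression from 1 array per sample. The median over all genes lay between 5.35 and 5.43 per array, and any 2 arrays correlated at 0.991 to 0.997 across genes. All 20 genes of a list of cochlear markers were measured, among them Coch, an abundant protein of the spiral ligament, at 10.9 to 11.4. Their mean lay at 6.32 to 6.53 in controls and 6.04 to 6.56 in runners. The files give no detection call, so it cannot be read from a low value whether a gene was expressed at all, and levels are compared between arrays, not between genes. Beside cochlear tissue, 2 arrays stood apart in glandular genes. Control 5 exceeded every other array by over 1 log2 in 8 genes and runner 1 in 9, whereas each of the other 8 arrays did so in 0 to 3. Differences between the groups and profile distances that rest on these arrays are given with and without them. In tissue RNA, fewer cells of a type and less RNA per cell cannot be told apart.

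No member differed between runners and controls by the test, and the members did not vary as 1 group. Bpifb1, Muc5b and Tff2 were all highest in control 5 and next highest in control 2, and were ordered differently over the other 8 arrays. The genes nearest in profile to Bpifa1, picked for that nearness, were mostly genes of motile cilia, and their nearness rested partly on runner 4. The cochlear marker Coch had the same 3 highest arrays as Bpifa1 and the same lowest one. Scgb1a1, Scgb3a1, Muc4 and Krt5 ranged over 0.24 to 0.37 log2 across the 10 arrays and Reg3g over 0.50. Of the 9 members 5 were lower and 4 higher in runners, with 0 at a limma adjusted p under 0.05, where 0.00672% of all genes passed, and 0 at an unadjusted p under 0.05, where 3.92% of all genes were lower and 3.21% higher. The groups overlapped for all 9, while 0.548% of genes were lower in every runner than in every control and 0.38% higher. The median difference of the members was -0.12 log2, against 0.00091 over all genes, and their adjusted p lay between 0.700 and 0.998.

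**Figure D1:**
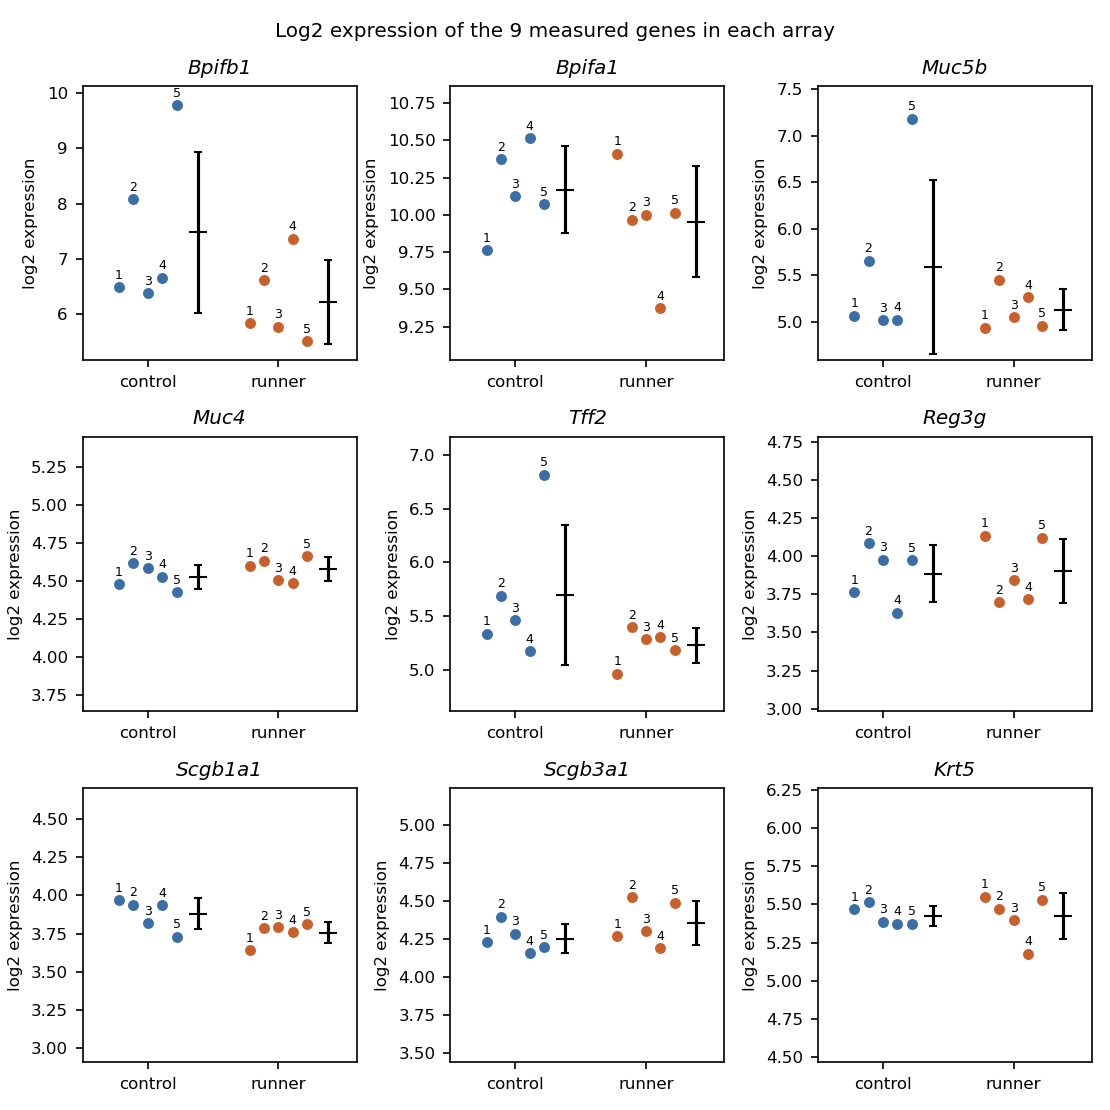
Log2 expression (vertical axis) of the 9 measured genes in 5 control (blue) and 5 runner (orange) arrays, with the replicate number above each point and the mean and SD of each group as a black bar. Axes differ in level and cover at least 1.8 log2. Control 5 is the highest array for Bpifb1, Muc5b and Tff2, and the groups overlap for every gene.

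Bpifb1 encodes a secreted protein of the bactericidal/permeability-increasing fold family, made by mucous and glandular cells of the upper airway. Its log2 level was 6.49, 8.08, 6.39, 6.66 and 9.78 in controls 1 to 5 and 5.83, 6.62, 5.77, 7.36 and 5.51 in runners 1 to 5. Control 5 was the highest array, control 2 came next and runner 4 followed, and runners 1, 3 and 5 lay below every control. The whole range was 4.26 log2, or 19.2-fold. Controls averaged 7.48 ± 1.46 (SD, n = 5) and runners 6.22 ± 0.76 (SD, n = 5). Runners were thus 2.39-fold lower, by -1.26 ± 0.59 log2 (SE). The 95% interval of this difference reached from -2.54 to 0.019, and it did not pass (limma adjusted p = 0.700). Without control 5 it was -0.68 ± 0.41 (limma adjusted p = 0.918).

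Muc5b encodes a gel-forming mucin that gives airway mucus its body. Its level was 5.07, 5.66, 5.02, 5.03 and 7.18 in controls 1 to 5 and 4.94, 5.45, 5.05, 5.27 and 4.96 in runners 1 to 5. Apart from control 5 the arrays lay within 4.94 to 5.66, and the groups were interleaved. Controls averaged 5.59 ± 0.93 (SD, n = 5), runners 5.13 ± 0.22 (SD, n = 5), and the difference was -0.46 ± 0.34 (SE; 95% interval -1.20 to 0.29; limma adjusted p = 0.800). Without control 5 the difference was -0.059 ± 0.15 (limma adjusted p = 0.971), so that 1 array carried most of it.

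Tff2 encodes a trefoil peptide that is secreted with mucins and protects mucous surfaces. Controls 1 to 5 were at 5.34, 5.69, 5.46, 5.17 and 6.82, and runners 1 to 5 at 4.96, 5.40, 5.29, 5.30 and 5.19. Control 5 was again the highest and control 2 the second. Controls averaged 5.70 ± 0.65 (SD, n = 5), runners 5.23 ± 0.17 (SD, n = 5), and the difference was -0.47 ± 0.25 (SE; 95% interval -1.001 to 0.063; limma adjusted p = 0.725). It was -0.19 ± 0.11 without control 5 (limma adjusted p = 0.918).

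These 3 genes belonged to a small set that marked control 5. The 8 genes in which control 5 exceeded the next array by over 1 log2 were Bpifb1, Muc5b, Tff2, Dmbt1, Lipf, Lyz1, Gp2 and Ttr. The gap to the next array was 2.59 log2 for Dmbt1, a mucosal scavenger receptor protein, and 2.09 for Lipf, the lipase of gastric and lingual glands. It was 1.69 for Bpifb1, 1.52 for Muc5b, 1.41 for the lysozyme gene Lyz1, 1.15 for Gp2, a glycoprotein of secretory granules, and 1.13 for Tff2. Dmbt1 and Gp2 come from a list of 40 secretory airway genes, while Lipf and Lyz1 are in none of the lists used here and were singled out after their values were seen. The list was itself chosen with earlier results of these data known, so Dmbt1 and Gp2 are no independent support either.

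The arrays below control 5 were ordered alike in some of these genes. Profiles were compared by scaling each gene to mean 0 and SD 1 over the 10 arrays and taking the mean absolute difference, for which the median gene lay 1.12 SD from Bpifb1. Lipf lay at 0.063 SD and Dmbt1 at 0.10 SD, the nearest of 17492 genes compared, from which the members and gene models without a proper name were left out. Lipf was at 5.50, 7.72, 5.64, 5.87 and 9.81 in controls 1 to 5 and 4.93, 5.69, 4.90, 6.61 and 4.59 in runners 1 to 5. Dmbt1 was at 5.77, 7.41, 5.54, 5.97 and 9.995 in controls and 4.80, 5.61, 4.98, 6.43 and 4.61 in runners. In both, as in Bpifb1, control 5, control 2 and runner 4 were the 3 highest arrays, in that order, and runner 5 the lowest. The next nearest outside the members were Uvssa, Inhba, Agr2, Atad5, Lyz1 and Abca4, at 0.29 to 0.37 SD. Among them Agr2, a disulfide isomerase needed for mucin folding, ranged over 0.56 log2 and Lyz1 over 2.20. Among the members, Muc5b and Tff2 lay 0.17 SD from each other and 0.34 and 0.36 SD from Bpifb1. Over the 9 arrays without control 5 Lipf and Dmbt1 lay at 0.098 and 0.12 SD from Bpifb1, still the nearest genes compared. Muc5b then lay at 0.47 SD, with 41 genes nearer, Tff2 at 0.63 SD, with 403 genes nearer, and Muc5b and Tff2 were 0.51 SD apart, so that the nearness of these 3 members to each other rested largely on control 5. Dmbt1 differed by -1.65 ± 0.72 (SE) between the groups (limma adjusted p = 0.676) and by -0.89 ± 0.41 without control 5 (limma adjusted p = 0.918).

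Control 5 was also the array with the highest level of choroid plexus genes. Ttr, the thyroid hormone carrier made by the choroid plexus, was at 9.22 in control 5 and at 5.51 to 7.46 in the other 9 arrays. Of 10 measured genes of a choroid plexus and ependyma list 7 were highest in control 5, where 3.97% of all genes were. The mean of the list was 6.14 in control 5, 5.42 to 5.67 in the other controls and 5.35 to 5.56 in runners, its sum 54.2 to 61.4 in controls and 53.5 to 55.6 in runners, and none of the 10 was at 0. In control 2, the second array for Bpifb1, Ttr was at 6.42 and the list mean was 5.57. The part of this tissue in the levels of Bpifb1, Muc5b and Tff2 was not tested.

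**Figure D2:**
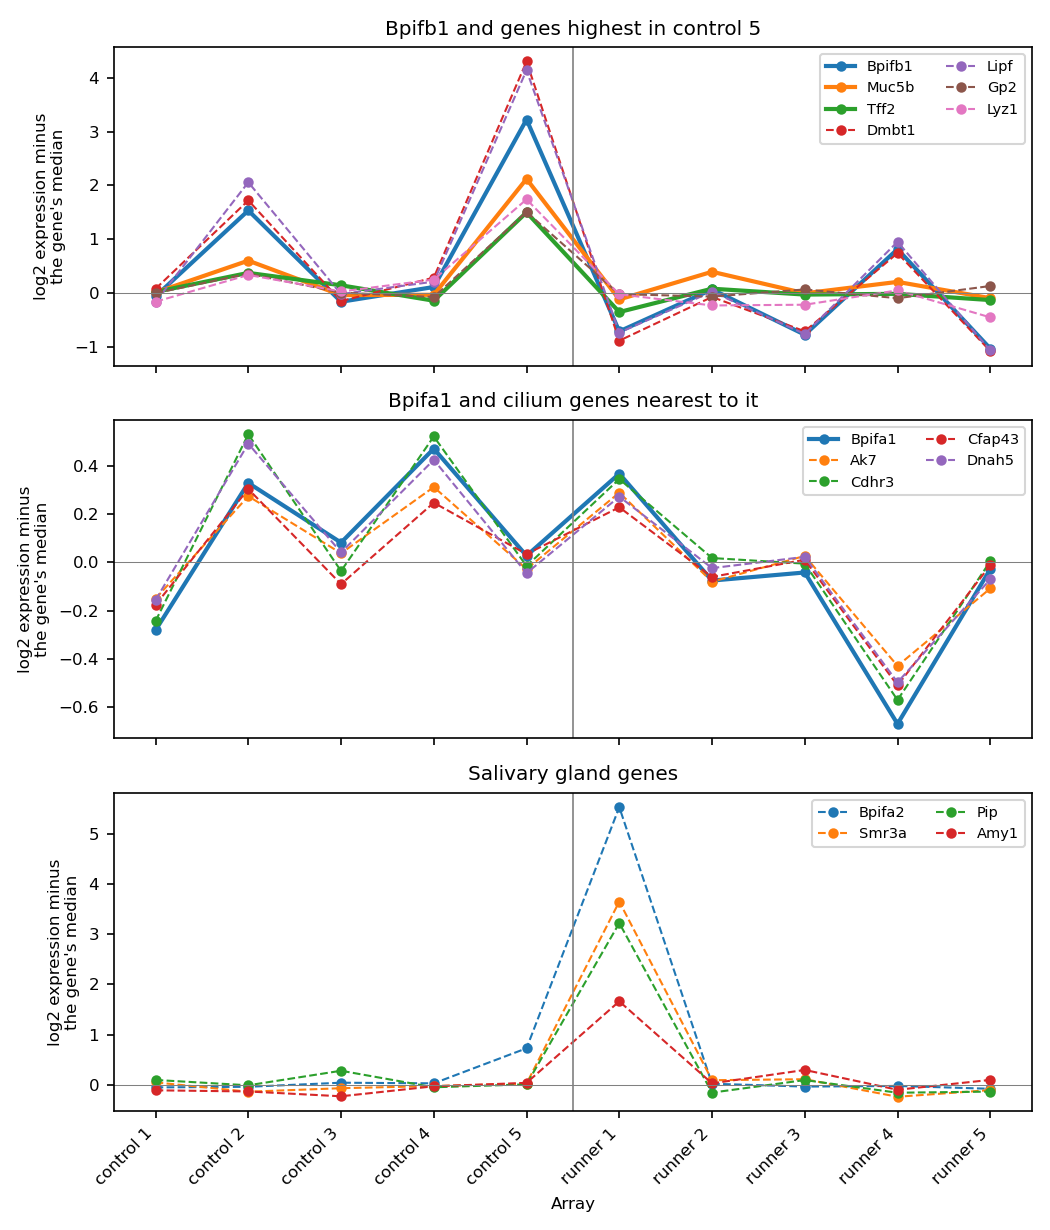
Log2 expression minus each gene's median over the 10 arrays (vertical axis) in controls 1 to 5 and runners 1 to 5 (horizontal axis), with members as solid and other genes as dashed lines that join arrays only to guide the eye. Bpifb1, Lipf and Dmbt1 share their 3 highest arrays. Bpifa1 and the cilium genes nearest to it have their lowest value in runner 4, and the salivary genes shown are highest in runner 1.

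Bpifa1 encodes an abundant secreted protein of the airway surface with antimicrobial and surfactant-like activity, and belongs to the same gene family as Bpifb1. Controls 1 to 5 were at 9.76, 10.37, 10.13, 10.52 and 10.07, and runners 1 to 5 at 10.41, 9.97, 10.002, 9.37 and 10.02. Control 4, runner 1 and control 2 were the highest arrays and runner 4 the lowest, so that runner 4, among the 3 highest arrays for Bpifb1, was the last for Bpifa1. Controls averaged 10.17 ± 0.29 (SD, n = 5) and runners 9.95 ± 0.37 (SD, n = 5). The difference was -0.22 ± 0.17 (SE; 95% interval -0.59 to 0.16; limma adjusted p = 0.814), and -0.24 ± 0.19 without control 5 (limma adjusted p = 0.918). Without runner 4, the lowest array, it was -0.070 ± 0.14 (limma adjusted p = 0.966), and without runner 1 -0.33 ± 0.16 (limma adjusted p = 0.390).

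The genes nearest to Bpifa1 were mostly genes of motile cilia. The profile of Bpifa1 lay 1.09 SD from that of Bpifb1, about as far as the median gene lay from Bpifa1, at 1.06. The 8 nearest were Ak7, Cdhr3, Lum, Cfap43, Dnah12, Dnah5, Cfap44 and Ccdc146, at 0.18 to 0.23 SD, of which 4 are in the list of ciliated cell genes used here. They lay at 0.16 to 0.23 SD without control 5, 0.18 to 0.23 SD without runner 1 and 0.23 to 0.32 SD without runner 4. Without runner 4 they were no longer the nearest. Of 17492 genes compared, 6 then lay nearer than Ak7, 11 nearer than Cdhr3 and 34 nearer than Dnah5. Cdhr3, a cadherin of ciliated airway cells, was at 5.39, 6.16, 5.60, 6.15 and 5.62 in controls 1 to 5 and 5.98, 5.65, 5.63, 5.06 and 5.64 in runners 1 to 5. Dnah5, a heavy chain of the outer dynein arm that drives ciliary beating, was at 5.35, 6.00, 5.54, 5.93 and 5.46 in controls and 5.78, 5.48, 5.53, 5.01 and 5.43 in runners. Both were high in controls 2 and 4 and runner 1 and lowest in runner 4, as Bpifa1 was apart from the order of its 3 highest arrays. Lum, which encodes a collagen-binding proteoglycan of connective tissue, is the 1 of the 8 that is no gene of cilia or of ciliated cells. Cyp2f2, a cytochrome of club cells in the secretory list, was also highest in controls 4 and 2, at 8.60 and 8.54, and lowest in runner 4, at 7.39. The 3 brightest cochlear markers, Coch, Gjb2 and Gjb6, were likewise highest in runner 1 and controls 2 and 4. Coch and Gjb2 were lowest in runner 4 and Gjb6 in runner 5.

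Bpifa1 and Bpifb1 lie in 1 cluster of related genes on chromosome 2, between which the arrays show 3 different patterns. Of 14 measured genes of the family 3 had a within-group spread above the 95th percentile of all genes, namely Bpifa1, Bpifb1 and Bpifa2. The other 11 ranged over 0.14 to 0.32 log2 across the 10 arrays. Bpifa2, the parotid secretory protein, was at 9.30 in runner 1 and at 3.70 to 4.51 in the other 9 arrays, with control 5 the second highest. Some other genes of salivary glands were high in the same array. Smr3a was at 7.08 in runner 1 and 3.20 to 3.55 elsewhere, Pip at 5.60 and 2.22 to 2.66, and the salivary amylase Amy1 at 7.003 and 5.11 to 5.64. Smr3a and Pip are named because runner 1 stood far above the other arrays in them. Prol1 was at 4.84 in runner 1 and at most 4.62 elsewhere, and Aqp5 was highest in control 3, at 6.30, with runner 1 at 6.28. Of the 6 measured genes of the salivary list 5 were highest in runner 1, where 18.8% of all genes were. The mean of these 6, Bpifa2 among them, was 6.68 in runner 1, 4.10 to 4.27 in the other runners and 4.20 to 4.40 in controls. Bpifb1 was at 5.83 in runner 1, so the salivary and the Bpifb1 pattern fell on different arrays. Bpifa2 differed by 0.94 ± 0.90 (SE) between the groups (limma adjusted p = 0.847), and without runner 1 the sign turned, to -0.17 ± 0.14 (limma adjusted p = 0.659).

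The bases upstream of the start sites of these 3 neighbours are printed because their levels fell on different arrays although the genes lie close together. Each window is the 250 bases before a RefSeq start site, on the plus strand of GRCm38.p6, 5′ to 3′, and Bpifb1 has 2 start sites. Capitals mark matches to any of 5 motifs searched on both strands. These were the TATA box core spelled TATAAA, the forkhead motif spelled TGTTTAC, the RFX motif spelled GTTGCC, the NKX2 motif spelled CAAGTG and the AP-1 motif spelled TGACTCA.
Bpifa1, chr2:154142630-154142879: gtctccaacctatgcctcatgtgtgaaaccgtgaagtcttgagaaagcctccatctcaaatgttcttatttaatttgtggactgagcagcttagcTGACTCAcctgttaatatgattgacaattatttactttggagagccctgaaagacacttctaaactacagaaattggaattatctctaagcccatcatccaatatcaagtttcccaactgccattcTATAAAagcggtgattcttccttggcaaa
Bpifb1, start 1, chr2:154190568-154190817: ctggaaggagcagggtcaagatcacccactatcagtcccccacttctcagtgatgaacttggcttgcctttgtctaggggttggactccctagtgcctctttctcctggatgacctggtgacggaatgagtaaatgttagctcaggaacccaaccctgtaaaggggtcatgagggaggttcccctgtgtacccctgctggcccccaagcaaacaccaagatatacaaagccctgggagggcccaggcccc
Bpifb1, start 2, chr2:154200130-154200379: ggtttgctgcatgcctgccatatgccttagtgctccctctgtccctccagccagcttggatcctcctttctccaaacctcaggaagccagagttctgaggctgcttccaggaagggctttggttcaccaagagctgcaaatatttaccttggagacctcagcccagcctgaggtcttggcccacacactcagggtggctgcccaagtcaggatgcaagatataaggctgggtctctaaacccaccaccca
Bpifa2, chr2:154008026-154008275: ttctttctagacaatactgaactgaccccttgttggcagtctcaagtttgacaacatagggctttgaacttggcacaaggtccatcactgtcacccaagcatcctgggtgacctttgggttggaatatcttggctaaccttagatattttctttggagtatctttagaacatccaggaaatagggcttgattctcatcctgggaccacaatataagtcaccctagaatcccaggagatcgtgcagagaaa
In the Bpifa1 window the TATA box core began 29 bases and the AP-1 motif 155 bases before the start site, and the matches did not overlap. The Bpifb1 and Bpifa2 windows held 0 matches to the 5 motifs, which says only that these letters are not there. Of 32851 such windows 12.4% held the TATA box core, 3.17% the forkhead, 10.4% the RFX, 11.6% the NKX2 and 4.46% the AP-1 motif. The RefSeq table had a window for 6 of the 10 members.

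The 2 secretoglobins had a spread near or below that of the median gene. Scgb1a1, the club cell secretory protein, was at 3.97, 3.94, 3.82, 3.94 and 3.73 in controls 1 to 5 and 3.64, 3.78, 3.79, 3.76 and 3.81 in runners 1 to 5. Controls 1 to 4 lay above every runner, but control 5 lay below 4 of the 5. The difference was -0.12 ± 0.062 (SE; 95% interval -0.26 to 0.012; limma adjusted p = 0.707), and without control 5 -0.16 ± 0.061 (limma adjusted p = 0.918, unadjusted p = 0.0234). Scgb3a1, a secretoglobin of upper airway secretory cells, was at 4.23, 4.40, 4.29, 4.16 and 4.20 in controls and 4.27, 4.52, 4.30, 4.19 and 4.49 in runners. Its difference was 0.10 ± 0.075 (SE; 95% interval -0.061 to 0.27; limma adjusted p = 0.790). In neither gene were control 5 or control 2 raised in the way they were for Bpifb1.

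Muc4, the membrane-bound mucin of the airway surface, ranged over 0.24 log2, from 4.42 in control 5 to 4.66 in runner 5. Controls averaged 4.53 ± 0.078 (SD, n = 5), runners 4.58 ± 0.079 (SD, n = 5), and the difference was 0.051 ± 0.059 (SE; 95% interval -0.076 to 0.18; limma adjusted p = 0.883). Control 5 was thus the lowest array for Muc4 and the highest for the gel-forming Muc5b. For Muc4 control 1 was close to it, at 4.48, so its low place in control 5 says little. Reg3g, an antibacterial lectin induced at mucosal surfaces, ranged over 0.50 log2, with runners 1 and 5 and control 2 the highest, at 4.13, 4.12 and 4.08, and control 4 the lowest, at 3.63. Its difference was 0.017 ± 0.11 (SE; 95% interval -0.22 to 0.26; limma adjusted p = 0.985), and its sign turned when single arrays were left out.

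Krt5 encodes the keratin of basal cells. It lay between 5.18, in runner 4, and 5.55, in runner 1, and the controls averaged 5.42 ± 0.065 (SD, n = 5), the runners 5.43 ± 0.15 (SD, n = 5). The difference of 0.0018 ± 0.073 (SE; 95% interval -0.16 to 0.16; limma adjusted p = 0.998) had no stable sign, being -0.011 without control 5.

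The spread between arrays of 1 group differed widely between the members. It was measured as the residual SD within groups, whose median over all genes was 0.12 log2 and whose 95th percentile was 0.25. Bpifb1 had 1.16, a value exceeded by 0.0235% of genes, Muc5b 0.68, exceeded by 0.124%, Tff2 0.48, exceeded by 0.497%, and Bpifa1 0.33, exceeded by 1.79%. Reg3g had 0.20, exceeded by 12.6%, and Scgb3a1 0.12, exceeded by 49.3%, whereas Krt5, Scgb1a1 and Muc4, at 0.12, 0.087 and 0.078, lay below the median of all genes. In log2 level Reg3g, Scgb3a1, Scgb1a1 and Muc4 lay below the median of the array in every array. A small spread at such levels cannot be read as steady expression. Muc5b too lay below the median of the array, except in control 5, control 2 and runner 2. Without control 5 Bpifb1 (0.78), Bpifa1 (0.35) and Muc5b (0.26) remained above the 95th percentile, then at 0.26, and Tff2 (0.19) did not.

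**Figure D3:**
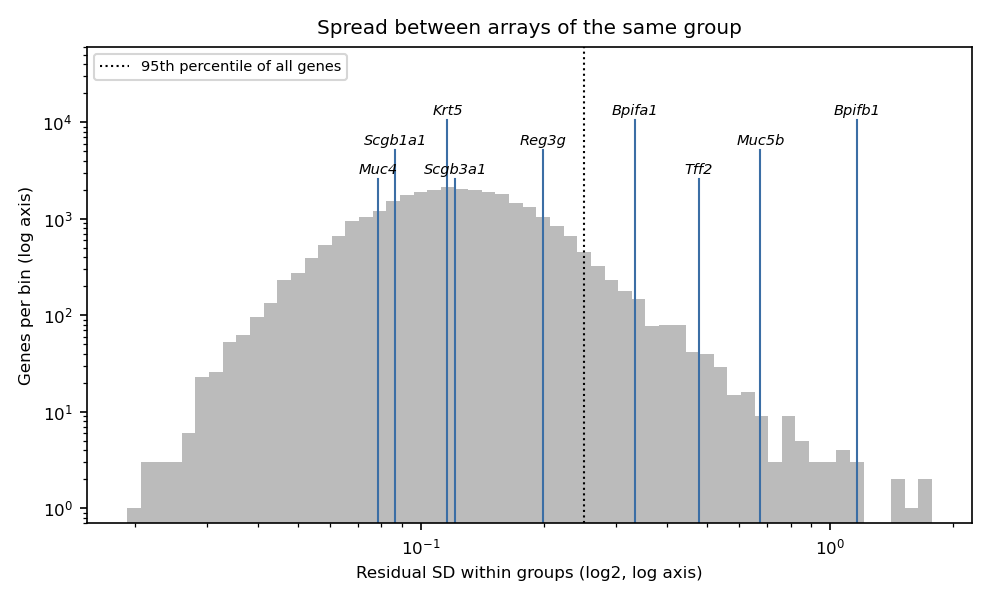
Number of genes (vertical axis, log scale) by residual SD within groups (horizontal axis, log2 units on a log scale) for all 29766 genes, with the 9 members marked by blue lines and the 95th percentile by a dotted line. Bpifb1, Muc5b, Tff2 and Bpifa1 lie to the right of the dotted line and the other 5 to its left.

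Genes in lists of secretory, ciliated and basal cells were more often lower than higher in runners without passing the test. Most lists of other tissues leaned the same way. Over all genes 49.5% were lower, and 3.92% were lower and 3.21% higher at an unadjusted p under 0.05. Of 40 secretory genes 38 were measured, 27 lower (71.1%) and 11 higher in runners, with 3 lower and 1 higher at an unadjusted p under 0.05 and 0 at a limma adjusted p under 0.05. Of the 30 that are no members 22 were lower (73.3%) and 8 higher, with a median difference of -0.081 log2. The 4 with the smallest p were the membrane mucin Muc1 (-0.16 ± 0.056 SE), the potassium channel subunit Kcne3 (-0.22 ± 0.083), the mucosal chemokine Cxcl17 (0.19 ± 0.071) and Dmbt1. Gp2 (residual SD 0.47), Cyp2f2 (0.38) and the tethered mucin Muc16 (0.31) were the most variable after Dmbt1.

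Of 38 ciliated cell genes 36 were measured, 31 lower (86.1%, against 49.5% of all genes) and 5 higher in runners, with 3 lower and 0 higher at an unadjusted p under 0.05 and 0 at a limma adjusted p under 0.05. Their median difference was -0.098 log2. The 3 were Cfap126 (-0.23 ± 0.074 SE), Myb (-0.42 ± 0.14), which blood cell precursors also express, and the dynein intermediate chain gene Dnaic1 (-0.19 ± 0.081), followed by Rsph1 of the radial spoke (-0.30 ± 0.14). The variation lay in single arrays, with 20 of the 36 highest in control 2, where 7.74% of all genes were, and 23 lowest in runner 4, where 14.7% of all genes were. Sntn, a protein of the ciliary tip, was highest in control 2 at 5.32 and control 4 at 5.21, and so was the radial spoke gene Rsph4a, at 5.67 and 5.51.

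Of 18 basal cell genes 16 were measured, 13 lower (81.2%, against 49.5% of all genes) and 3 higher, with 3 lower and 0 higher at an unadjusted p under 0.05 and 0 at a limma adjusted p under 0.05, and a median difference of -0.059 log2. Snai2 (-0.56 ± 0.17 SE), a transcription factor that mesenchymal cells also express, the desmosome gene Dsp (-0.29 ± 0.10) and Pdpn (-0.15 ± 0.066), which bone and lymphatic cells also express, were the 3. Without the member Krt5, 13 of the 15 basal genes were lower. Krt14, Krt15 and Trp63, which define basal cells with Krt5, differed by -0.070, -0.013 and -0.037. The 20 cochlear markers were all lower in runners as well, 8 at an unadjusted p under 0.05, where 3.92% of all genes were lower, and 0 at a limma adjusted p under 0.05, with a median of -0.20 log2. Of choroid plexus genes 9 of 10 were lower, of neutrophil genes 9 of 11 and of keratinocyte genes 9 of 13. Of olfactory genes 3 of 9 were lower and of salivary genes 1 of 6. The lean was thus not particular to the airway lists. The part of a shift in tissue make-up in them was not tested.

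**Figure D4:**
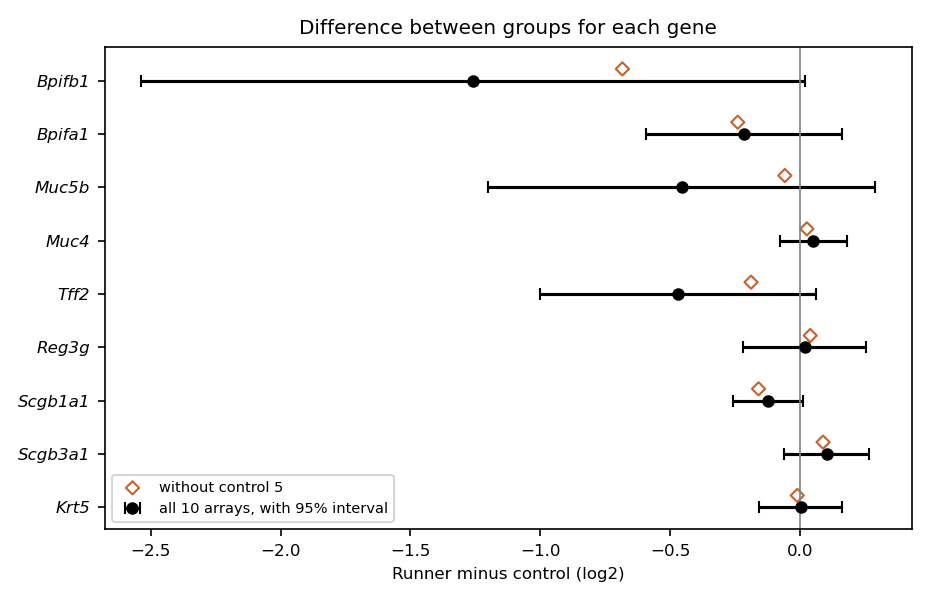
Difference between runners and controls (horizontal axis, log2) for the 9 members, with the 95% interval of the limma fit over all 10 arrays (black) and the value without control 5 (orange diamonds). Every interval holds 0, and the differences of Bpifb1, Muc5b and Tff2 lie nearer to 0 without control 5.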

How the data were processed

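The authors deposited 1 log2 value per array row and sample. Per the submitters' processing notes they used RMA and Partek (no version stated). RMA equalizes array distributions and understates fold changes of dim genes. Chip and build: not given in the sources used here. Array rows therefore carry no coordinates.

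Of 39295 rows 30130 named 1 gene, 2146 several and 7019 none. Symbols of 827 were updated through Entrez identifiers to RefSeq (GRCm38.p6, for names and upstream sequences). Of several rows for a gene (294 genes) the brightest was kept, leaving 29766 genes.

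Runners and controls, 5 each, were compared with limma 3.58.1 in R 4.3.3 (a linear model with a single group term and empirical Bayes moderation). Tests were two-sided, with Benjamini-Hochberg adjustment over all genes and a threshold of 0.05. Differences are runner minus control, with moderated SE. On simulated data of this size and spread the test recovered 84% of 100 genes changed by 0.5 log2 and 99% of 100 changed by 1, with 6 false calls among 29766 genes. The changed genes were drawn at random, and the noise was normal and independent between genes, with no array standing apart. These rates therefore do not hold for members of large spread, such as Bpifb1 with a residual SD of 1.16. Members and lists were chosen with earlier results of these data known. Named non-members were the 4 with the smallest p and the 4 with the largest residual SD of each airway list, the 8 nearest to the mean profile of the members, and up to 3 of the highest mean in each list of another tissue. Smr3a and Pip, the genes nearest to Bpifb1 and Bpifa1 and the distances with an array left out were added after the data were seen. Lists of other tissues were choroid plexus, salivary gland, skin, olfactory, neutrophil and cochlear genes. The array number limits precision. Alternatives were a filter on dim genes, other moderation, array weights, median centring, a repeat of quantile normalization, other handling of probe sets, a replicate block and each array left out. Figures used matplotlib 3.10.9.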

Additional observations from a re-analysis of the deposited data

Results flagged for a closer look

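Among 55 named genes, 110 groups of 5 arrays were searched for an array far from the other 4 of its group (gap to the next array over 0.71 of the group's range), and 9 were found. Chance gives about 1 in 20 groups for independent genes. That rate does not apply strictly here, since some of these genes were picked for a large spread or a small p. No member was among the 9, though Muc5b and Tff2 came near in control 5, with gaps of 0.704 and 0.685 of the range. Scgb1a1 came near in runner 1, its lowest runner, with a gap of 0.692. Gp2 was high in control 5, at 5.10, the array in which Bpifb1, Muc5b and Tff2 were highest. Amy1 was high in runner 1, at 7.003, as were the neutrophil genes S100a8, at 11.9, and Ltf, at 10.1. Muc1 was low in runner 4, at 4.24, and Gzmg, at 3.50. Odf3b was high in control 2, at 6.55, Vmo1 in control 3, at 7.37, and Lor in runner 3, at 7.07.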

How the results depend on the processing

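In every alternative run 0 of the measured members passed, with adjusted p between 0.319 and 0.998. Bpifb1, Bpifa1, Muc5b, Tff2 and Scgb1a1 stayed lower and Scgb3a1 and Muc4 higher in runners in all of them. Bpifa1 lay between -0.33 and -0.070 with each array left out. An unadjusted p under 0.05 arose for Bpifb1 with array weights (0.0250) and without runner 4 (0.0245), control 1 (0.0315), control 3 (0.0266) or control 4 (0.0408), for Tff2 without control 4 (0.0338) and for Scgb1a1 without control 5 (0.0234). The filter on dim genes kept 4 of the 9 members, Bpifb1, Bpifa1, Tff2 and Krt5. Bpifb1 lay between -1.54 and -0.68 with each array left out, Muc5b between -0.60 and -0.059 and Tff2 between -0.60 and -0.19. With array weights Krt5 turned to -0.0078 and Reg3g to -0.0048, and without control 5 and runner 1, a choice made after the data were seen, to -0.042 and -0.019. With each array left out Krt5 lay between -0.029 and 0.064 and Reg3g between -0.047 and 0.068.

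Over all genes 2 were called, 1 without moderation, 15 with array weights, 17 without control 5 and runner 1, and 2 to 99 with each array left out, the 99 without runner 1. Of the genes of the 3 airway lists 10 had an unadjusted p under 0.05, 5 with the filter on dim genes, which tested fewer, 19 with array weights, and 7 to 19 with each array left out, the 19 without runner 1 and 17 without control 1. Elsewhere the cause was not tested. Of the members 4 had a spread above the 95th percentile, and 3 to 4 with each array left out. Same-numbered runners and controls deviated with correlations of -0.25 to 0.28, and differently numbered ones with -0.35 to 0.29. These values showed no pairing by number but could not exclude one. With a replicate block 2 genes were called, 0 members passed and 10 list genes had an unadjusted p under 0.05.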

Other observations

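The mean profile of all 9 members, each scaled to the same weight, was compared with other genes in the same way. Its distance to the airway lists as a whole was not computed. The 8 genes nearest to this mean profile were Npbwr1, Gzmg, Nkx2-2, Dnaic1, Odf3b, Ankmy1, Dennd2a and Exoc3l4, at 0.32 to 0.41 SD. Of them 1, Dnaic1, is in an airway list. Their ranges over the 10 arrays were 0.15 to 0.57 log2.

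The mean of 13 keratinocyte genes lay between 4.43 and 4.60 in controls and 4.46 and 4.53 in runners, with Lor, Flg and Krt10 the brightest. The mean of 9 olfactory and nasal genes lay between 4.64 and 4.72 in controls and 4.63 and 4.75 in runners, with Vmo1, Gnal and Adcy3 the brightest. The mean of 11 neutrophil granule genes was highest in runner 1, at 9.73, and lay between 9.15 and 9.25 in the other runners and 9.19 and 9.59 in controls. Besides Bpifa2, Smr3a, Pip and Amy1, runner 1 exceeded all other arrays by over 1 log2 in Car6, the secreted carbonic anhydrase of saliva, with a gap of 2.49.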
